A study of Homo sapiens with 2 samples.

Results

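Succinate dehydrogenase, the cytochrome bc1 complex, cytochrome c oxidase and ATP synthase, that is, complexes II to V of the mitochondrial respiratory chain, were examined in SW480 cells, an established colorectal cancer line. Their genes were picked by a symbol rule, which was set with earlier results from these arrays known. It took probe sets whose single gene symbol starts with SDHA to SDHD, UQCR, CYC1, COX4 to COX8 or ATP5. The 2 pseudogene probe sets that matched were dropped. This gave 50 of the 33297 probe sets, which stood for 46 of 18417 genes. The study holds 2 arrays, 1 in each group. The first carries RNA of SW480 cells overexpressing the TFAP2E coding sequence from the pTarget plasmid. TFAP2E encodes the transcription factor AP-2 epsilon. The second carries RNA of SW480 cells with the plasmid alone. Both kinds of cell went through Geneticin selection over weeks and through picking of single clones, and the labels leave unsaid how many clones an array represents. A difference between clones and an effect of TFAP2E therefore cannot be told apart, and no value has a replicate, so no test was possible.

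In the respiratory chain, complex II takes electrons from succinate and hands them to ubiquinone, complex III passes them on to cytochrome c, and complex IV delivers them to oxygen. Complexes III and IV pump protons while they do so, and complex V lets the protons flow back and makes ATP. Complex II is built from nuclear genes only, whereas the catalytic cores of complexes III and IV and the proton channel of complex V also need subunits made from mitochondrial DNA. Those mitochondrially encoded subunits were not analysed here, nor were the nuclear genes SDHB, UQCRFS1, ATP5F1E and NDUFA4.

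Values are log2 expression values after RMA, and each difference is the TFAP2E-labelled array less the value with empty vector. A gene counted as measured when the higher of its values reached 5.55, the median over both arrays together, and 11548 genes did. For a gene with several probe sets the one with the highest mean was used. The TFAP2E probe set itself read 6.81 on the TFAP2E-labelled array, against 6.77 with empty vector, so the array labels rest on the submitters' word, and so does the direction of each difference. Whether its probes lie in the coding sequence carried by the plasmid was not checked. Epithelial markers other than VIL1 reached the filter on both arrays. KRT18 read 12.55 and EPCAM 11.14 on the TFAP2E-labelled array, against 12.57 and 11.20 with empty vector. All 8 epithelial markers were measured, 2 of them higher and 6 lower, with VIL1 at a difference of 1.28 and CDH1 at -0.71. VIL1 read 6.22 on the TFAP2E-labelled array, against 4.94 with empty vector, so it passed the filter only through the TFAP2E-labelled array. None of 4 endothelial markers was measured, and of the 6 fibroblast markers and the 5 leukocyte markers on the array 2 were measured in each list. The measured leukocyte markers went in opposite directions. CD68, a macrophage and lysosome marker, read 6.60 on the TFAP2E-labelled array, against 6.02 with empty vector. CD14 read 5.46 and 5.66 in that order, so it passed the filter only through the empty vector array. Since RNA came from whole cultures, more transcript per cell and more cells of a kind rich in these transcripts cannot be told apart.

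Genes of complexes II to V were mostly somewhat higher on the TFAP2E-labelled array. Of the 46 genes 38 were measured and 8 were dim on both arrays. The difference was above 0 for 33 of the 38, where 59.2% of all measured genes lay above 0. Their median difference was 0.21, or 1.16-fold, against 0.04 for all measured genes. At a fixed size of 1.2-fold, 11 of the 38 were higher, beside a background of 12.8% of all measured genes. At the same size 0 were lower, beside a background of 6.06%. UQCRH, among the 11, passed the filter only through the TFAP2E-labelled array. None of the 38 reached 1.5-fold, which 0.892% of all measured genes did in the upward direction. With quantile normalization, or with a loess trend on level removed, 6 rather than 11 genes were 1.2-fold higher. Over all measured genes the count fell as well, from 1483 to 1211 and to 1026. With the arrays centred on their medians it was 14 genes, beside 1785 over all measured genes. The 5 genes below 0 were ATP5IF1, COX6A2, ATP5F1D, SDHA and ATP5MC2.

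**Figure D1:**
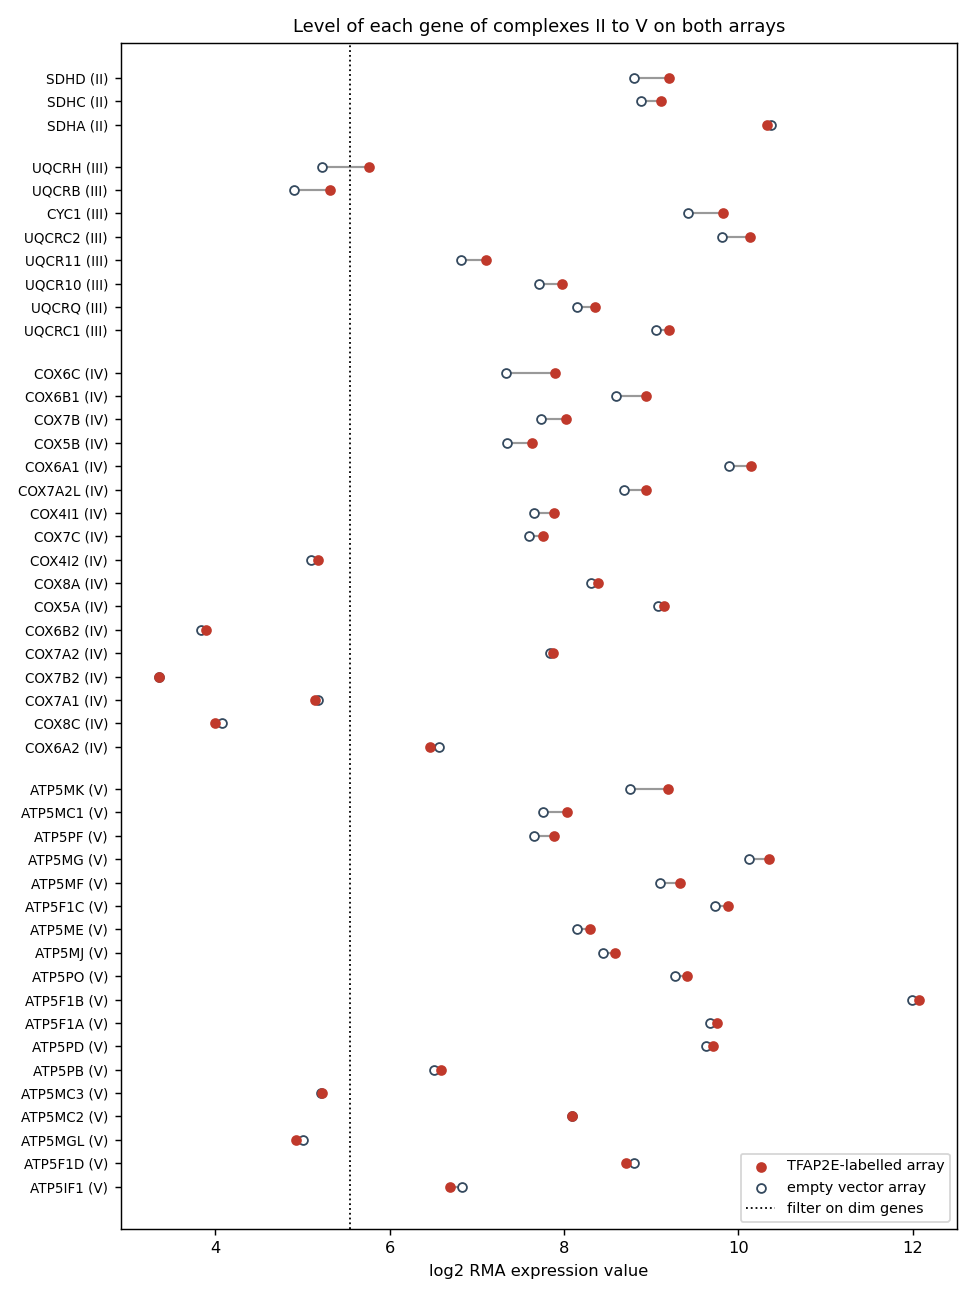
The log2 RMA value (horizontal axis) of each of the 46 genes of complexes II to V is shown as a filled point for the TFAP2E-labelled array and an open point for the empty vector array, with the filter at 5.55 as a dotted line. Most filled points lie to the right of the open ones, and the widest gap is that of COX6C, at 7.90 on the TFAP2E-labelled array, against 7.33 with empty vector.

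The complexes differed in how far they stood from 0. Complex III had the highest median difference, 0.28 over 7 measured genes, followed by complex IV with 0.24 over 12. Complex II had 0.22 over 3 and complex V 0.14 over 16. The complex II median is the value of SDHC, whose second probe set had a difference of 0. In complex III all 7 measured genes were above 0, in complex IV 11 of 12, in complex II 2 of 3 and in complex V 13 of 16. The share among all measured genes was 59.2%. At 1.2-fold the counts of higher genes were 4, 4, 1 and 2 in the same order of complexes. Against the background of 12.8%, the 4 of 7 genes in complex III were a larger share, and the 2 of 16 in complex V were close to the background. UQCRH, 1 of the 4 in complex III, passed the filter only through the TFAP2E-labelled array, where it was higher. The order of the medians changed with the processing. With no filter complex IV had 0.08 and complex V 0.11, and with probe sets averaged complex II had 0.11 and complex V 0.14, while complex III stayed highest in all settings run. With the arrays unreplicated, the order of the complexes is a description of these 2 arrays.

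**Figure D2:**
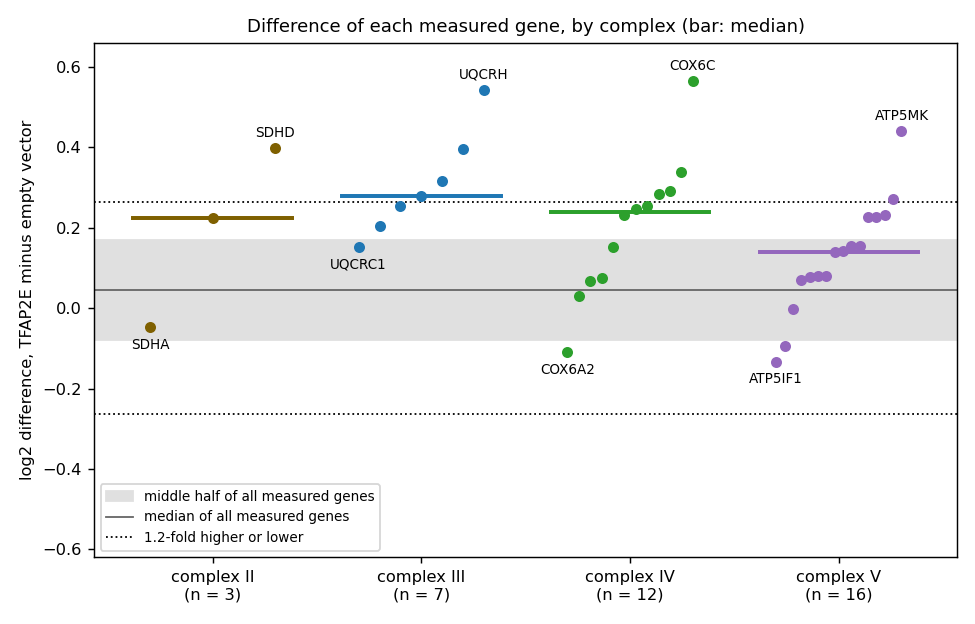
Each point is the log2 difference (vertical axis) of 1 measured gene, sorted within its complex, and each coloured bar is the median of the complex. The grey band and line give the interquartile range and the median of all 11548 measured genes. The points of complex III lie above the grey line throughout, from UQCRC1 at 0.15 to UQCRH at 0.54, while complexes II, IV and V each reach below 0.

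Promoters of the highest genes are shown because genes of respiratory complexes are known targets of the nuclear respiratory factor NRF1 and of the ETS factor GABP. These sequences come from RefSeq (GRCh38.p14), each covering the 190 bases before the annotated start, in the gene's orientation, for the 4 genes of highest difference for which a single promoter sequence was at hand and could be shown. Capitals mark matches on either strand to the NRF1 core GCGCANGCG, the ETS core CCGGAAG and the core GCCNNNGGC of AP-2, the family of TFAP2E. The UQCRH promoter lies at chr1:46303508-46303697 on the plus strand, that of ATP5MK at chr10:103396476-103396665 on the minus strand, that of SDHD at chr11:112086683-112086872 on the plus strand and that of COX6B1 at chr19:35648133-35648322 on the plus strand.
UQCRH: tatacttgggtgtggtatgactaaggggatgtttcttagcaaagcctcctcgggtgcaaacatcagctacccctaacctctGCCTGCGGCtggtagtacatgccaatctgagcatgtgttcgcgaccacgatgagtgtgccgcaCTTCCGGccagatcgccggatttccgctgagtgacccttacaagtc
ATP5MK: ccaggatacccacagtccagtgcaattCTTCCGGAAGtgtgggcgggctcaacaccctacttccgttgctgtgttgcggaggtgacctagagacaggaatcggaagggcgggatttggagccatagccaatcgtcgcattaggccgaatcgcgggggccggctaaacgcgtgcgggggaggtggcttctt
SDHD: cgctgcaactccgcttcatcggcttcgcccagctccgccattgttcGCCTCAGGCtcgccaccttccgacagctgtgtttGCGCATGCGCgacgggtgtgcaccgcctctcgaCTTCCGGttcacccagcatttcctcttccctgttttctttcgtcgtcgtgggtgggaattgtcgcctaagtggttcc
COX6B1: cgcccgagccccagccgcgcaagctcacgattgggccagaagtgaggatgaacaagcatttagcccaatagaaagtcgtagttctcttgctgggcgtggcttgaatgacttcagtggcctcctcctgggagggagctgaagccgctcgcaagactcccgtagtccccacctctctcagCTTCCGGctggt

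All 4 held an ETS core, at 46 bases before the start in UQCRH, 77 in SDHD and 12 in COX6B1, and as a palindrome of overlapping matches starting 163 bases before the start in ATP5MK. SDHD also held an NRF1 core, read on both strands, from 110 bases before the start. UQCRH and SDHD further held an AP-2 core, at 109 and at 144 bases before the start, and ATP5MK and COX6B1 held none in the window searched. Over windows of 300 bases, 250 before and 50 after the start, 41 promoters of 35 of the 46 genes could be searched. The 35 genes include dim ones, unlike the set of measured genes beside them. An ETS core was found in 39.0% of these 41 promoters, in 16.9% of the 13341 promoters of measured genes and in 10.3% of all 35116 promoters. The NRF1 core was found in 31.7%, 12.6% and 7.52%, and the core AAGATGGC of YY1, another known regulator of respiratory genes, in 12.2%, 4.77% and 2.89% of the same sets. The AP-2 core GCCNNNGGC, the sequence bound by the family of TFAP2E, was found in 17.1% of the promoters of complexes II to V, in 32.5% of those of measured genes and in 23.2% of all. Matches of different motifs did not overlap in any of the 41 promoters. The NF-Y motif CCAAT (43.9%, 34.2% and 34.6%) and the Sp1 motif GGGCGG (53.7%, 67.6% and 45.0%) were searched likewise.

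Among the 32 measured genes with a promoter, the 15 with an ETS core had a median difference of 0.23 and the 17 without one of 0.14. The 12 with an NRF1 core had a median of 0.15 and the 20 without of 0.22. For the AP-2 core the medians were 0.14 over 7 genes with it and 0.23 over 25 without it. For the other motifs the medians with and without a match were 0.25 against 0.15 for NF-Y (15 genes with it and 17 without), 0.15 against 0.25 for Sp1 (19 and 13), and for YY1 0.15 against 0.22 (4 and 28). The genes with an AP-2 core ran from COX5A at 0.07 to UQCRH at 0.54. ATP5IF1, COX6A2, SDHA and ATP5MC2, all below 0, were among the 25 genes without it, which is most of the 32. ATP5F1D, also below 0, had no promoter to search. A match of letters does not show that a factor binds.

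**Figure D3:**
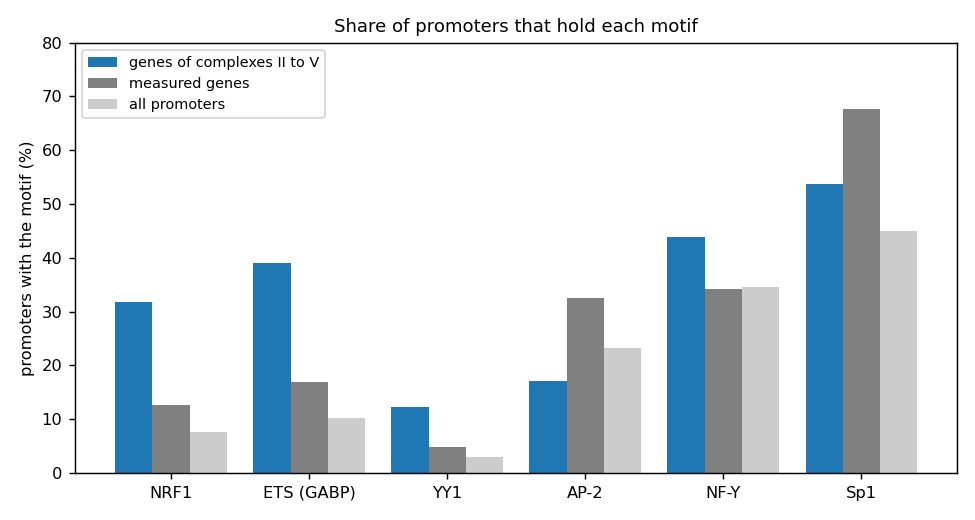
Bars give the percentage of 300-base promoters (vertical axis) that hold each motif. The sets are genes of complexes II to V, measured or dim (41 promoters), measured genes (13341) and all genes (35116). ETS, NRF1 and YY1 cores were more frequent in the promoters of complexes II to V than in the other sets, whereas the AP-2 core was less frequent, at 17.1% against 32.5% in measured genes.

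On the probe sets used, both membrane anchors of complex II were above 0 and the catalytic flavoprotein was slightly below. SDHD, a membrane anchor that helps to bind ubiquinone, read 9.21 on the TFAP2E-labelled array, against 8.81 with empty vector, a difference of 0.40 (1.32-fold). A second SDHD probe set read 8.10 and 7.66 in the same order, a difference of 0.44. SDHC, the other anchor, read 9.11 on the TFAP2E-labelled array, against 8.89 with empty vector (0.22). Its second probe set read 7.21 on both arrays, with a difference of exactly 0, so the probe sets of SDHC disagree. By its number, the second set is the one that falls among genes of SDHC's own chromosome. SDHA, the flavoprotein that oxidises succinate, read 10.33 on the TFAP2E-labelled array, against 10.38 with empty vector (-0.05).

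Complex III had the narrowest range of complexes III to V. UQCRH, the hinge protein that helps cytochrome c to dock, read 5.77 on the TFAP2E-labelled array, against 5.23 with empty vector, a difference of 0.54 (1.46-fold). It was below the filter on the empty vector array, the only measured gene of complexes II to V that was, and its promoter above carries the ETS core. CYC1, the cytochrome c1 that hands electrons to cytochrome c, read 9.82 on the TFAP2E-labelled array, against 9.43 with empty vector (0.40, 1.32-fold). UQCRC2, a core protein on the matrix side, read 10.14 and 9.82 in the same order (0.32). Both of these genes were well above the filter on each array. Its other core protein, UQCRC1, was the lowest of the complex, at 9.20 on the TFAP2E-labelled array, against 9.05 with empty vector (0.15). The small supernumerary subunits UQCR11 (0.28), UQCR10 (0.25) and UQCRQ (0.20) lay between. UQCRB, another small subunit, was dim on both arrays, at 5.32 on the TFAP2E-labelled array, against 4.90 with empty vector, and differed by 0.42.

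Complex IV spread most widely. Its nuclear subunits surround the mitochondrially encoded core, and several exist as a general form and a form restricted to certain tissues. COX6C, a small subunit of the membrane part, had the largest difference of all 38 measured genes, with 7.90 on the TFAP2E-labelled array, against 7.33 with empty vector (0.56, 1.48-fold). COX6B1, which faces the intermembrane space, read 8.94 on the TFAP2E-labelled array, against 8.60 with empty vector (0.34, 1.26-fold). COX7B read 8.02 and 7.73 (0.29), and the zinc-binding subunit COX5B read 7.64 and 7.35 (0.28), the TFAP2E-labelled array first. These 4 genes were the ones past 1.2-fold in this complex.

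At the lower end of complex IV were COX6A2 (-0.11), COX7A2 (0.03) and COX5A (0.07). COX6A2, the heart and muscle form of subunit 6A, read 6.46 on the TFAP2E-labelled array, against 6.57 with empty vector. COX7A2 read 7.87 on the TFAP2E-labelled array, against 7.84 with empty vector, and COX5A read 9.15 and 9.08 in that order. The remaining measured genes were COX6A1 (0.25), COX7A2L (0.25), COX4I1 (0.23), COX7C (0.15) and COX8A (0.08). COX7A2L is no ordinary subunit but a factor that joins complexes III and IV into supercomplexes.

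The general and the tissue forms of complex IV subunits could be compared by whether they were measured. All 6 general forms, COX4I1, COX6A1, COX6B1, COX7A2, COX7B and COX8A, were measured, and all were above 0, with a median difference of 0.24. Of the 6 tissue forms only COX6A2 was measured. The other 5, COX4I2 (5.18 on the TFAP2E-labelled array, 5.10 on the empty vector array), COX6B2 (3.89 and 3.84), COX7A1 (5.14 and 5.18), COX7B2 (3.35 on both) and COX8C (a difference of -0.08), were dim on both arrays. Their differences ran from -0.08 to 0.08. COX6A1 had a second probe set, with 9.53 on the TFAP2E-labelled array, against 9.30 with empty vector (0.23), close to the 0.25 of the probe set used.

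In complex V the medians differed between parts of the enzyme. The catalytic F1 head had the lowest median, 0.08 over 4 genes. ATP5F1B, the catalytic beta subunit, read 12.08 on the TFAP2E-labelled array, against 12.00 with empty vector (0.08), the alpha subunit ATP5F1A differed by 0.08, and the gamma subunit ATP5F1C, part of the rotor, by 0.15. ATP5F1D, the delta subunit, read 8.71 on the TFAP2E-labelled array, against 8.80 with empty vector (-0.10). None of the F1 genes reached 1.2-fold.

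The 5 accessory subunits of the membrane part had the highest median of complex V, 0.23, and all 5 were above 0. ATP5MK, also known as DAPIT, a small protein of the dimer interface, read 9.20 on the TFAP2E-labelled array, against 8.76 with empty vector (0.44, 1.36-fold). Its second probe set read 7.82 and 7.37 in the same order (0.45). ATP5MG and ATP5MF both differed by 0.23, ATP5ME by 0.15 and ATP5MJ by 0.14. The 4 genes of the peripheral stalk, which holds the head still, had a median of 0.11, from ATP5PF at 0.23 and ATP5PO at 0.14 to ATP5PD at 0.08 and ATP5PB at 0.07. ATP5MK alone among these 9 genes was past 1.2-fold.

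The c-ring, the part of the rotor that carries protons, is encoded by several genes with the same mature protein, and their differences were unequal. ATP5MC1 read 8.03 on the TFAP2E-labelled array, against 7.76 with empty vector (0.27, 1.21-fold). ATP5MC2 read 8.10 on both arrays after rounding, with a difference of -0.0011, and ATP5MC3 was dim, at 5.23 on the TFAP2E-labelled array, against 5.22 with empty vector. ATP5IF1, which binds the head and blocks ATP hydrolysis, was the lowest of all 38 measured genes, at 6.69 on the TFAP2E-labelled array, against 6.83 with empty vector (-0.13). ATP5MGL, a copy related to ATP5MG, was dim on both arrays (-0.08). ATP5MC1 was the gene nearest above the 1.2-fold size, and UQCR10 and COX6A1, at 0.25 each, lay nearest below it.

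Many genes of complexes II to V have pseudogene copies that array probes may share. RefSeq names 134 pseudogenes after 29 of the 46 genes, up to 18 for COX6C. COX6C values may thus hold signal of its copies, and the part of such copies was not tested. The same holds for the other genes with named copies, among them SDHD with 7, SDHC with 5 and ATP5MK with 1. Probe set numbers of these genes mostly run by chromosome, but those used for SDHD, SDHC and ATP5MK fall among genes of other chromosomes. The values used for SDHD, SDHC and ATP5MK may therefore be those of copies. Probe positions were not checked for any gene with several probe sets. CYC1 and UQCR11, both past 1.2-fold, have no pseudogene named after them.

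Chromosomal position was looked at because stretches of chromosomes 3, 7, 8, 9 and 17 had earlier been seen to be shifted as a whole between these arrays. Of the 38 measured genes only COX6C on chromosome 8 and ATP5MF on chromosome 7 lay in such a stretch, as did the dim UQCRB on chromosome 8. For each gene the median difference of its 20 nearest measured genes, genes of complexes II to V left out, was set beside its own. COX6C differed by 0.56 and its neighbours by 0.11, whereas ATP5MF differed by 0.23 and its neighbours by 0.21. UQCRH (neighbours 0.05), ATP5MK (0.04), SDHD (0.12) and CYC1 (0.09) likewise stood above their surroundings. Neighbours were taken around the gene itself. For ATP5MK, SDHD and SDHC the probe set used may lie at a copy elsewhere, so this comparison may not apply to them. Relative to the neighbours, 30 of 38 genes were higher, beside 50.2% of all 11534 genes with enough neighbours, and 8 of 38 were at least 1.2-fold higher, beside 8.26%. The median after subtraction was 0.14 over all 38 and 0.26 in complex III, 0.15 in complex IV, 0.08 in complex II and 0.04 in complex V. Complex III thus kept nearly its whole difference, and complex V kept least.

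**Figure D4:**
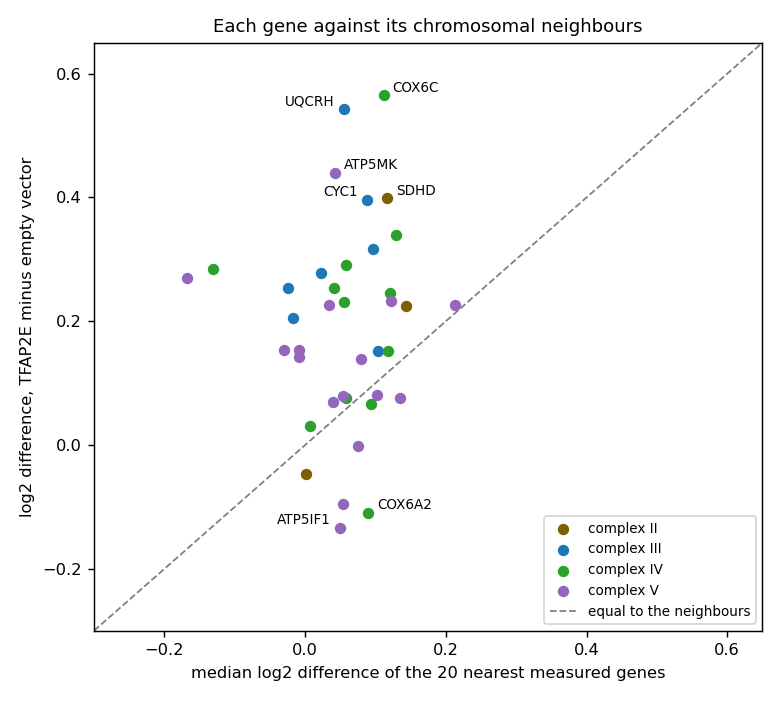
The log2 difference of each of the 38 measured genes (vertical axis) is plotted against the median difference of its 20 nearest measured genes (horizontal axis), with the line of equality dashed. Points above the line, 30 of 38, differ more than their neighbours. COX6C, at 0.56 against 0.11, and UQCRH, at 0.54 against 0.05, lie farthest above it, and ATP5MF, at 0.23 against 0.21, lies almost on it.

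The level of a gene was also set beside its difference, since respiratory genes are strongly expressed. In 5 bands of mean level the other measured genes had median differences between 0.03 and 0.07, and the genes of complexes II to V between 0.07 and 0.25. In each band the genes of complexes II to V were the higher ones. The closest values were in the band below 7, which held 5 of them, at 0.07 against 0.03.

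Genes that build the complexes or regulate them were taken from lists. These lists, like the members, were drawn up with earlier results from these arrays known. As a background to the counts below, 59.2% of all measured genes were above 0 and 12.8% were 1.2-fold higher. Of 20 measured assembly factors of complex IV 16 were above 0, with a median of 0.15, and 5 were past 1.2-fold. CMC1, a factor that stabilises newly made COX1, read 5.83 on the TFAP2E-labelled array, against 5.27 with empty vector (0.56), so that it passed the filter only through the TFAP2E-labelled array, and TACO1, the translational activator of COX1, differed by 0.43. SCO2, a copper chaperone (-0.06), and COX11, another copper protein of assembly (-0.10), were lowest. In complex III, 5 of 6 assembly factors were above 0 (median 0.19), with BCS1L, which inserts the Rieske protein, at 0.27 and UQCC2 at 0.26, against 0.01 for LYRM7 and -0.19 for TTC19. The measured assembly factors of complex II were SDHAF3 (0.42, in the shifted stretch of chromosome 7) and SDHAF2 (0.19). Those of complex V were ATPAF1 (0.16), TMEM70 (0.16) and ATPAF2 (0.13), beside the inhibitor ATP5IF1, and TMEM70 and ATPAF2 lie in shifted stretches too.

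Nuclear regulators of mitochondrial genes were measured in 11 cases, of which 9 were above 0, with a median of 0.21 and 3 past 1.2-fold. The background shares were 59.2% above 0 and 12.8% past 1.2-fold. TFB2M, which helps mitochondrial RNA polymerase to start transcription, read 7.68 on the TFAP2E-labelled array, against 7.12 with empty vector (0.56). GABPB1, a partner of the ETS factor GABPA, read 8.01 and 7.56 in that order (0.44). Among them were 3 factors whose motifs were searched, with GABPA at 0.02, chosen after its value was seen, NRF1 at -0.02 and YY1 at -0.08. NRF1, and COQ4 and CYCS below, lie in shifted stretches. Among electron carriers and ubiquinone synthesis genes 11 of 13 were above 0 (median 0.13), from PDSS2 at 0.29 and ETFA at 0.25 to COQ7 at -0.01 and COQ4 at -0.13. Cytochrome c itself, CYCS, also named after its value was seen, differed by 0.12.

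Median differences of like size were present in complex I, in the mitochondrial ribosome and in the proteasome, and the shift was not shown to be particular to complexes II to V. The 40 measured complex I genes, the entry point of the chain for NADH, had a median difference of 0.17, with 32 above 0 and 10 past 1.2-fold. The 72 mitochondrial ribosomal protein genes had a median of 0.16, with 66 above 0 and 22 past 1.2-fold. The 35 proteasome genes, which serve protein breakdown outside mitochondria, had a median of 0.18, with 31 above 0, 5 past 1.2-fold higher and 1 past 1.2-fold lower. Complexes II to V, with a median of 0.21, 33 of 38 above 0 and 11 past 1.2-fold, had a median near these. Of all measured genes 59.2% were above 0 and 12.8% were 1.2-fold higher. Beside the 12.8%, 11 of 38 was a larger share, and so were 10 of 40 in complex I and 22 of 72 in the mitochondrial ribosome. The 5 of 35 in the proteasome were close to the background. These contrasts were not tested.

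**Figure D5:**
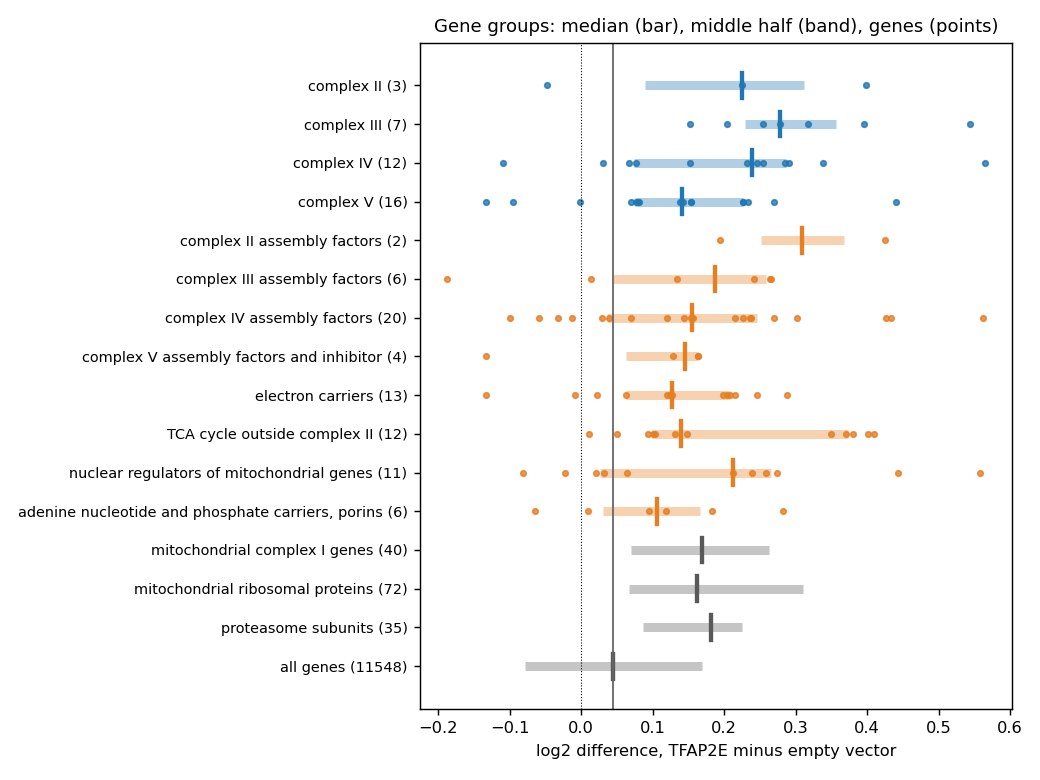
For each gene group the bar is the median log2 difference, the band the interquartile range and the points single genes (drawn for the complexes and the listed sets only), with the number of measured genes in parentheses and the median of all genes as a grey line. The complexes and the mitochondrial sets lie to the right of the grey line at 0.04, and the proteasome genes, at a median of 0.18, lie there too.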

How the data were processed

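Total RNA of 2 SW480 cultures was labelled with biotin and hybridised to Affymetrix arrays, 1 array per group. The authors deposited log2 expression values per probe set that were made, per the submitters' processing notes, with RMA. This method brings arrays close to a common distribution, so a change of all transcripts alike would largely not show. The deposited values still differed somewhat, with a median over all probe sets of 5.538 on the TFAP2E-labelled array and 5.563 with empty vector. For RMA and the annotation, version and genome build were not given in the sources used here. Of 33297 probe sets, 19460 had 1 symbol in the platform annotation, 1754 had several and 12083 none. Of those with several, 6 held a matching symbol and were left out. From the deposited log2 values differences, medians and counts were computed with Python 3.11.15, pandas 2.3.3 and statsmodels 0.14.6 (loess span 0.3). With 1 array per group there is no p-value, and the number of arrays limits the precision. The SD of all differences was 0.219. The calculation was tested on simulated data. The members, gene lists and shifted stretches were chosen with earlier results of these data known, and the stretches were placed by approximate band limits. All members may be named, and of the other lists the 2 highest and 2 lowest genes. Alternatives were 3 scalings, 2 filters, averaging of probe sets, leaving out shifted stretches or genes that are no subunits, and larger fold sizes. Subtraction of neighbours and counting of all probe sets were added after seeing the data.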

Additional observations from a re-analysis of the deposited data

How the results depend on the processing

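Each median of complexes II to V, and of each complex, stayed above 0 under every alternative that was run, and no measured gene was 1.2-fold lower under any. The count of genes at least 1.2-fold higher, 11 of 38, was 14 with centring, 6 after quantile normalization and 6 when the loess trend was removed. It was 0 at 1.5-fold and at 2-fold. The overall median, 0.21, became 0.15 without the loess trend, 0.15 with no filter, 0.14 after subtraction of the 20 nearest genes and 0.15 over all member probe sets. Without the loess trend the medians were 0.16 for complex II, 0.18 for complex IV and 0.079 for complex V, and that of all genes was -0.0011. Complex II had 0.11 with probe sets averaged. Complex IV had 0.082 with no filter and 0.12 over all its probe sets, where its dim tissue forms enter. In these settings complex IV, and with averaging complex II, lay below complex V, which had 0.11 with no filter and 0.14 in the others. After subtraction of neighbours complexes II, IV and V had 0.081, 0.15 and 0.045. Over all genes, 1483 were 1.2-fold higher and 700 lower. These became 791 and 299 with the 75th percentile filter, 103 and 70 at 1.5-fold, 10 and 13 at 2-fold. The count of higher genes was 1785 with centring, 1211 after quantile normalization and 1026 without the loess trend. With no filter 1364 were lower, and after subtraction of neighbours 953 were higher. The cause of these moves was not tested, except where a setting changes the genes counted. Adding subunits missed by the symbols was not run, since those on the array already matched or were not analysed here. The medians of all genes ranged up to 0.07, with centring. No paired analysis was possible because neither group holds more than 1 array.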

Other observations

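The tricarboxylic acid cycle, which feeds electrons to the chain, was higher on the TFAP2E-labelled array in all 12 measured genes outside complex II. Their median difference was 0.14. Of all measured genes on the arrays 59.2% were above 0. The 12 genes of the cycle fell into 5 with differences of 0.35 to 0.41 and 7 with 0.01 to 0.15. DLD, the dihydrolipoamide dehydrogenase shared by several dehydrogenase complexes, read 9.87 on the TFAP2E-labelled array, against 9.46 with empty vector (0.41), and IDH3B, a subunit of NAD-dependent isocitrate dehydrogenase, read 9.77 and 9.37 in that order (0.40). At the other end were IDH3G (0.05), of the same enzyme as IDH3B, and the NADP-dependent IDH2 (0.01). DLD and MDH2, malate dehydrogenase (0.37, named after its value was seen), lie in shifted stretches of chromosome 7. Of 6 carriers and porins, which pass ATP, phosphate and metabolites, 5 were above 0 with a median of 0.11, from the porins VDAC2 (0.28) and VDAC3 (0.18) to VDAC1 (0.01) and the ATP carrier SLC25A4 (-0.06).

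Exactly equal values on both arrays occurred in 1379 of the 33297 probe sets, or 4.14%, among them the second probe set of SDHC and that of COX7B2. The pseudogene probe sets that were dropped read 6.28 on the TFAP2E-labelled array, against 6.15 with empty vector for UQCRBP1 (0.12) and 8.34 and 8.42 in that order for ATP5F1EP2 (-0.08). For 3 of the 4 genes with several probe sets, SDHD (0.40 and 0.44), COX6A1 (0.25 and 0.23) and ATP5MK (0.44 and 0.45), the used and the second probe set gave close differences, unlike SDHC (0.22 and 0).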
